A study of Mus musculus with 10 samples.

Results

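Monocyte-dendritic progenitors (MDP) were compared with lymphoid-primed multipotent progenitors (LMPP), an earlier stage of blood formation, for the regions of open chromatin found in one and not in the other. Chromatin was profiled by ATAC-seq, in which a transposase cuts and tags accessible DNA, and each library was reduced by its authors to a list of peaks. Peaks of the 4 wild-type libraries on chromosomes 1 to 19 and X were joined at an overlap of 1 bp or more, and 92726 regions resulted. A region was called gained when both MDP libraries and neither LMPP library had a peak in it, and lost in the reverse case. By this rule 12229 regions (13.2% of the regions) were gained and 12258 (13.2%) were lost. Of the rest, 37348 regions were shared by all 4 libraries and 30891 had another pattern.

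The series holds 10 libraries in 5 groups of 2, all from bone marrow of C57BL/6 mice, and the 4 libraries compared are wild type with no further allele or agent named. The 2 WT MDP libraries came from CD115+ CD117+ cells that lacked lineage markers, Sca-1 and IL-7R, and the 2 WT LMPP libraries from lineage-negative cells positive for Sca-1, CD117 and CD135. For LMPP, the field that names the cell type has short-term stem cells instead, but titles and markers fit LMPP, and the titles were followed. A further 3 groups were used to follow the same regions: WT common dendritic progenitors (CDP), MDP labelled IRF8KO, and WT long-term stem cells (LT-HSC), with 2 libraries each. Between 5000 and 7200 cells went into a library, and no label says which animals they came from, so the spread between replicates may be partly technical.

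MDP, marked by the macrophage colony-stimulating factor receptor CD115, give rise to monocytes, macrophages and dendritic cells. LMPP carry the receptor Flt3 and can still give rise to lymphocytes and to myeloid cells, but hardly to red cells or platelets. Open regions away from gene starts are mostly candidate enhancers, to which lineage factors such as PU.1 (an ETS factor), the C/EBP family, RUNX1 and IRF8 bind. Open regions at gene starts mark promoters, many of which stay accessible whether or not the gene is transcribed.

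The assignment of a region to a gene is closest at promoters, although neighbouring genes can share one, as Slc4a1ap and Supt7l do in a single gained region, so 7 promoters inside changed regions are given first. Each is the RefSeq window of GRCm38.p6 from 250 bases before to 50 bases after an annotated start site, read in the direction of the gene. Capitals mark matches, on either strand, to the letters of 4 families of blood factors. For ETS factors, PU.1 among them, these letters are GGAAGT. C/EBP factors of myeloid cells were searched as TTGCNNAA. For RUNX factors, which act throughout blood formation, TGTGGT was used. GATA factors of stem, mast and red cells were searched as AGATAA. The first 4 lay in regions gained in MDP and belong to genes of granule and myeloid proteins. Elane encodes neutrophil elastase, Ctsg cathepsin G, Lcn2 the siderophore-binding protein lipocalin 2, and Ms4a3 a membrane protein of granulocyte-monocyte progenitors.
Elane (chr10:79886062-79886361, plus strand): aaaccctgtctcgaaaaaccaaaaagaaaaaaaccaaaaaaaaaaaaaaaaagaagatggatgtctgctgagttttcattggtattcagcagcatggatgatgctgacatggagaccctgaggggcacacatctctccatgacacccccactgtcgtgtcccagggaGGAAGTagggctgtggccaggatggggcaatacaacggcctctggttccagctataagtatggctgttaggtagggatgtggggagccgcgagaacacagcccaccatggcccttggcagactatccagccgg
Ctsg (chr14:56102525-56102824, minus strand): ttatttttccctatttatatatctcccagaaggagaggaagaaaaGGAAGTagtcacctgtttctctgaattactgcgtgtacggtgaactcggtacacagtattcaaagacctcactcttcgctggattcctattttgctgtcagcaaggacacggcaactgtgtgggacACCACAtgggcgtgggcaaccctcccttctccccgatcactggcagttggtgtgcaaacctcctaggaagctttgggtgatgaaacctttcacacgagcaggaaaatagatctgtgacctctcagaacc
Lcn2 (chr2:32387690-32387989, minus strand): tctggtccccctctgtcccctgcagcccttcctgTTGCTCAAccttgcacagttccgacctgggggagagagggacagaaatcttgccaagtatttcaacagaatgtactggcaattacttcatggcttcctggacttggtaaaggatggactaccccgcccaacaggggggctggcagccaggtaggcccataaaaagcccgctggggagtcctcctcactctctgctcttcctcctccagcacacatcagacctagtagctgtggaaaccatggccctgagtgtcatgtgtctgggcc
Ms4a3 (chr19:11640802-11641101, minus strand): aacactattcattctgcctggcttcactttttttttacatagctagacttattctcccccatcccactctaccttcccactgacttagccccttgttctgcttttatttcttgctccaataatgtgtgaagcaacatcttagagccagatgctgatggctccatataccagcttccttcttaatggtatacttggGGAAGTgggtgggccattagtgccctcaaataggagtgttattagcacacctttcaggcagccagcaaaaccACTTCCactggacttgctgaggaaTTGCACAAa
The last 3 lay in regions lost in MDP. Rag1 encodes a subunit of the recombinase of antigen receptor genes, Dntt the terminal transferase that adds bases at their junctions, and Cpa3 carboxypeptidase A3 of mast cells.
Rag1 (chr2:101649483-101649782, minus strand): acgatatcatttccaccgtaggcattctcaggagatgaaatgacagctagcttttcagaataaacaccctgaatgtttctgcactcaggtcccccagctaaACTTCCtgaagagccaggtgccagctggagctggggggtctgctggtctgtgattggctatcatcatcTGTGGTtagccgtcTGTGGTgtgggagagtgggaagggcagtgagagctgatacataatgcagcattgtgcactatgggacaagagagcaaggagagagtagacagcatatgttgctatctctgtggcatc
Dntt (chr19:41029025-41029324, plus strand): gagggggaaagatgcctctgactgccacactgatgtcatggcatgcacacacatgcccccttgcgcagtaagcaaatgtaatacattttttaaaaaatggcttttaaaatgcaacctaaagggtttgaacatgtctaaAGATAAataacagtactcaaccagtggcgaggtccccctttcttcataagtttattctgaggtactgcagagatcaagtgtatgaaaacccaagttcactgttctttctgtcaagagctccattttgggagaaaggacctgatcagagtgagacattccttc
Cpa3 (chr3:20242132-20242431, minus strand): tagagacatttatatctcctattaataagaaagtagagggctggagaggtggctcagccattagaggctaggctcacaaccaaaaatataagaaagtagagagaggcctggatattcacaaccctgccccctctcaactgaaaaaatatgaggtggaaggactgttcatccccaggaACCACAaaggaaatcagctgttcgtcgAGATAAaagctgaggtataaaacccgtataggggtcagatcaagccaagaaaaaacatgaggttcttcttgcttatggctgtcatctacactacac
The Elane and Ctsg windows hold 1 ETS match each, the Ctsg window also holds 1 RUNX match, the Lcn2 window 1 C/EBP match, and the Ms4a3 window 2 ETS matches and 1 C/EBP match. In the windows lost in MDP, Rag1 has 1 ETS and 2 RUNX matches, Dntt 1 GATA match, and Cpa3 1 RUNX and 1 GATA match.

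The libraries compared were alike in size. The MDP libraries had 62130 and 64515 peaks, against 63349 and 64181 in the LMPP libraries. Total tags, per the file headers, were 5394861 and 5328234 in MDP libraries and 6478095 and 5789312 in LMPP libraries. The share of tags within peaks was 51.25% and 53.74% in MDP, against 46.37% and 47.75% in LMPP, with no overlap between the groups. A two-sided exact permutation test gave p = 0.333 for this share and p = 1.0 for the number of peaks, where 0.333 is the smallest p that 2 against 2 libraries allow. Replicates shared 0.768 of the regions found in either library for MDP and 0.764 for LMPP, while pairs of 1 MDP and 1 LMPP library shared 0.514 to 0.517.

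The changed regions were narrow and lay low in the peak lists. The median width was 633 bp for gained, 660 bp for lost and 1130 bp for shared regions. If row order in a list is taken as peak strength, which the files do not state, gained regions had a median position 65.9% of the way down the MDP lists and lost regions 65.3% down the LMPP lists. Shared regions stood at 32.7% in the MDP lists. By mean position in the lists of their group, 461 gained regions (3.77%) and 678 lost regions (5.53%) were in the first 25%. For shared regions in the MDP lists this share was 39.5%. Just outside the rule stood 4455 regions with peaks in both MDP libraries and 1 LMPP library, with a median width of 685 bp and a median position of 62.8%. Their mirror image, 4730 regions in both LMPP libraries and 1 MDP library, had a median width of 707.5 bp and a position of 60.9%.

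Most of the change lay away from gene starts, and the regions lost in MDP lay farther out than those gained. In median distance, gained regions were near the value over all regions. The median distance to the nearest annotated start site was 31.3 kb for gained and 57.0 kb for lost regions. It was 18.7 kb for shared regions and 30.0 kb for all regions. Only 1.99% of gained regions (95% Wilson interval 1.76 to 2.26) and 3.5% of lost regions (3.18 to 3.84) were centred within 1 kb of a start. This share was 25.1% for shared and 12.1% for all regions. At the far end, 38.9% of gained and 53.5% of lost regions were more than 50 kb from any start, against 38.6% of all regions. No protein-coding gene lay within 100 kb of 8.32% of gained and 14.4% of lost regions, against 8.27% of all regions. These intervals cover counting error over regions only. Among chromosomes, the share of regions gained was highest on chromosome 9 (15.1%) and lowest on X (10.7%), and the share lost was highest on chromosome 18 (16.6%) and X (16.1%) and lowest on chromosome 11 (9.58%).

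Few start windows changed, and those that did fell unevenly over the gene lists. Of 21020 windows, 186 windows of 177 genes overlapped a gained region, 390 windows of 351 genes a lost region and 11510 a shared region. Neutrophil granule genes, whose products fill the granules of granulocytes and their precursors, had 6 of 18 members with a window in a gained region and none in a lost one: Camp, Ctsg, Elane, Fcnb, Lcn2 and S100a8. Monocyte and macrophage effector genes had 6 of 23 gained and none lost. These were Ccr2 (the chemokine receptor by which monocytes leave the marrow), Cybb (a subunit of the phagocyte oxidase), Clec7a (the fungal sugar receptor dectin-1), Marco (a scavenger receptor), F13a1 (a coagulation factor subunit made by monocytes) and Ms4a3. One conventional dendritic cell gene, Cd209a, and 1 T and NK cell gene, Tcf7, also had a window in a gained region.

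The start windows lost in MDP belonged to many lineages. Lymphoid priming genes had 3 of 15 members lost and none gained, namely Dntt, Rag1 and the adaptor gene Lax1. Ebf1, which specifies B cells, was the 1 of 11 B cell genes, and the T cell kinase gene Lck and the perforin gene Prf1 were the 2 of 16 T and NK cell genes. Mast cell and basophil genes lost Cpa3 and Mcpt8, erythroid genes Hemgn and megakaryocyte genes Gp1ba. Tek, the angiopoietin receptor of stem cells and endothelium, stood with Col1a2 and Emcn among 3 of 10 endothelial and stromal genes. Neural adhesion and synapse genes lost 6 of 15 windows (Cntnap2, Ctnna2, Dlg2, Nav2, Nlgn1 and Robo2), and among stem cell regulators 1 of 14, Nkx2-3. By contrast, all 24 myeloid transcription factor genes, all 17 cytokine receptor genes, all 16 cell cycle genes and all 11 housekeeping genes with a window had one in a region shared by the 4 libraries.

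**Figure D1:**
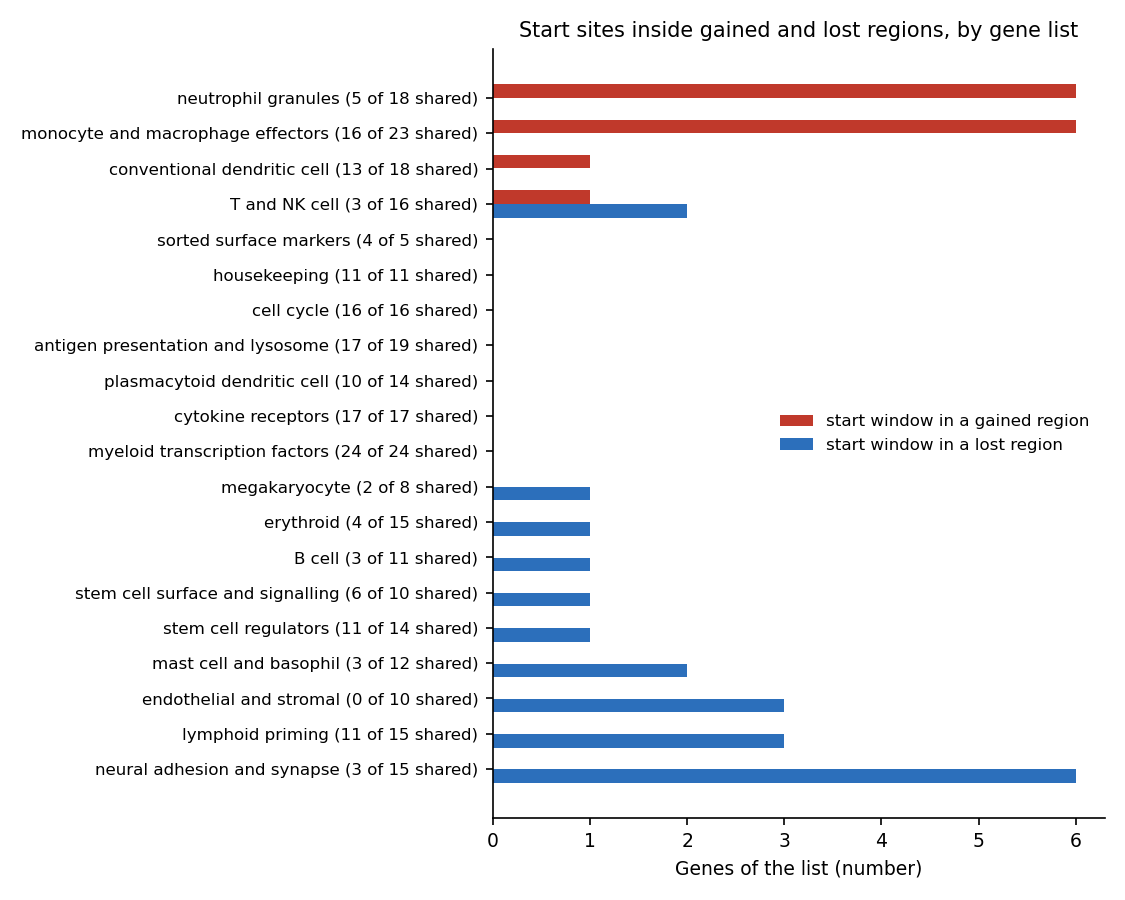
Number of genes in each list (bars, horizontal axis) whose start window overlapped a region gained (red) or lost (blue) in MDP, with the number of genes whose window was shared in brackets. Neutrophil and monocyte genes reach 6 gained and none lost, while myeloid transcription factors and cytokine receptors have neither.

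Gained start windows differed among themselves in the libraries that the rule did not use. Those of Camp, Lcn2 and Ms4a3 had peaks in both IRF8KO MDP libraries and in neither CDP library, and Camp also in both LT-HSC libraries. The Elane and Fcnb windows were detected in both IRF8KO MDP libraries and in 1 of 2 CDP libraries. Cybb, Cd209a, Marco and Tcf7 showed the reverse, with peaks in both CDP libraries and in neither IRF8KO MDP library. Ctsg, Ccr2, F13a1, Clec7a and S100a8 were detected in all 4 of these libraries. Among lost windows, those of Dntt, Lck and Prf1 were absent from both LT-HSC libraries, so within the series they had peaks in LMPP alone. The windows of Cpa3, Tek, Gp1ba, Col1a2 and Nkx2-3 had no peak in any MDP, CDP or IRF8KO MDP library, and a peak in both LMPP and both LT-HSC libraries.

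The letters in these windows differed between the classes, and so did their base composition. ETS letters were found in 31.7% of gained windows (95% Wilson interval 25.5 to 38.7) and 19.2% of lost windows (15.6 to 23.4). Their share was 29.0% in shared windows, within the interval of the gained windows, and 25.0% in all windows. The longer PU.1 form GAGGAAGT, which contains the ETS letters, stood in 5.38% of gained and 2.05% of lost windows (3.15% of all). C/EBP letters were in 15.1% (10.6 to 20.9) of gained and 9.74% (7.18 to 13.1) of lost windows, with 10.3% over all windows. For the letters GAAANNGAA, read by IRF factors, the shares were 13.4% of gained and 8.72% of lost windows, against 8.08% of all. KLF letters (GGGTGTGG) were in 6.99% of gained (4.13 to 11.6) and 2.05% of lost windows (1.04 to 3.99), against 3.65% of all. RUNX letters were in 16.1% of gained and 16.2% of lost windows, and GATA letters were in 9.68% and 11.3% of them. NFI letters (TTGGCA) were in 9.68% of gained (6.21 to 14.8) and 14.4% of lost windows (11.2 to 18.2). The intervals of gained and lost windows were apart for ETS and KLF and overlapped for PU.1, C/EBP, IRF, RUNX, GATA and NFI. E-box, AP-1, CTCF, HOX and MEF2 letters were also searched, without intervals. E-box letters, for example, were in 15.6% of gained and 19.2% of lost windows, and AP-1 letters in 8.6% and 5.9%. The intervals treat windows as independent, although the 186 gained windows belong to 177 genes and the 390 lost windows to 351. Overlapping windows of 1 gene, such as those of Unkl and of L1cam with KLF letters, were counted separately. Whether the KLF intervals stay apart when counted per gene was not tested. All motifs were searched on both strands. Median GC content was 54.2% in gained and 57.7% in lost windows, against 62.0% in shared windows, and the median number of CpG sites was 6, 11 and 22 for these 3 classes, so the part of base composition in the shares was not tested.

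**Figure D2:**
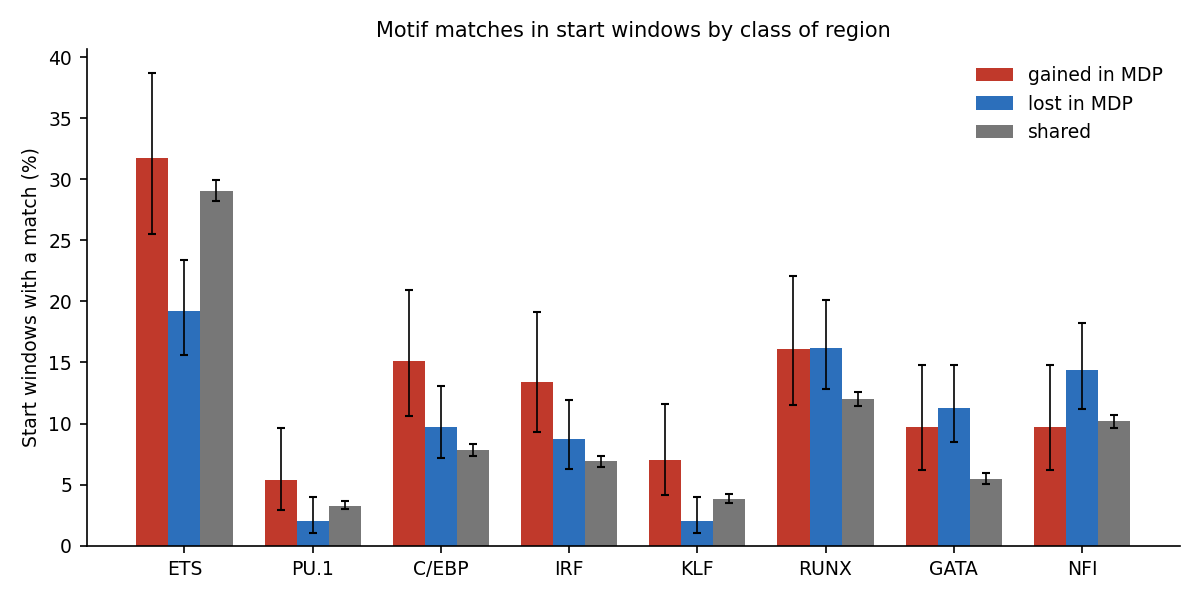
Share of start windows (vertical axis, %) with at least 1 match to the letters of each motif, for windows in gained (red), lost (blue) and shared (grey) regions. Bars are shares and whiskers 95% Wilson intervals over 186, 390 and 11510 windows. ETS letters stand at 31.7% in gained, 19.2% in lost and 29.0% in shared windows.

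Beyond the start sites, each region was given to the nearest protein-coding gene within 100 kb, which placed 85054 regions at 16754 genes. Of these regions 13.2% were gained and 12.3% lost. Of the genes, 4522 (27.0%) had more regions gained than lost and 3686 (22.0%) more lost than gained, and 2463 had both kinds. The gene lists below are read against these shares, which take the place of a test of each list.

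Myeloid lists leaned to gain. Genes of neutrophil granules had 29 of 86 regions gained (33.7%) and 3 lost, with net gain at 16 of 19 members and net loss at none. Monocyte and macrophage effectors had 60 of 210 gained (28.6%) and 9 lost, with net gain at 22 of 31 members. For antigen presentation and lysosome genes 34 of 147 regions were gained (23.1%) and 10 lost, for myeloid transcription factors 86 of 390 (22.1%) and 36 lost, for conventional dendritic cell genes 41 of 188 (21.8%) and 12 lost, and for cytokine receptors 34 of 175 (19.4%) and 10 lost. Cell cycle genes, with 31 of 162 gained (19.1%) and 12 lost, and housekeeping genes, with 11 of 64 (17.2%) and 3 lost, were also above the 13.2% over all genes. Plasmacytoid dendritic cell genes were near it, at 21 of 156 gained (13.5%) and 15 lost, and the few regions of the sorted surface markers counted 7 gained and 1 lost of 56. With 1 library left out, the net (gained minus lost) of plasmacytoid dendritic cell genes, 6, was -1 without LMPP replicate 2, 2 without LMPP replicate 1 and 10 without either MDP replicate. The net of cytokine receptors was 37 without MDP replicate 2, against 24, that of housekeeping genes 5 without either LMPP replicate, against 8, and that of the sorted surface markers 3 without LMPP replicate 1 and 13 without either MDP replicate, against 6. With the nearest start site in place of the nearest gene, the net was 1 for plasmacytoid dendritic cell genes, 11 instead of 19 for cell cycle genes and 2 for housekeeping genes, and cell cycle genes had a net of 5 when only genes within 20 kb were used.

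**Figure D3:**
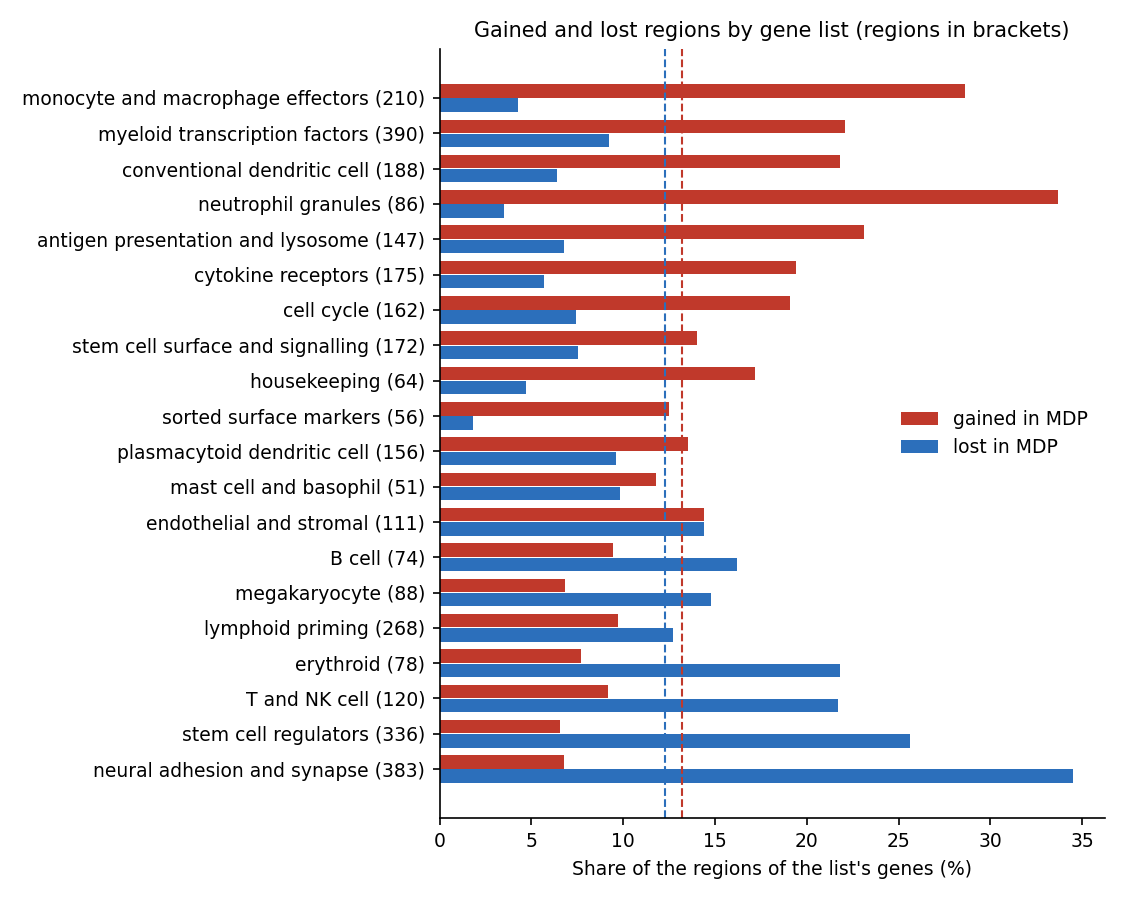
Share of the regions of each gene list (horizontal axis, %) that were gained (red) or lost (blue) in MDP, with the number of regions in brackets. Dashed lines mark 13.2% gained and 12.3% lost over the regions of all genes. Neutrophil granule genes reach 33.7% gained and neural adhesion genes 34.5% lost.

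The lists of neural adhesion genes, stem cell regulators, erythroid genes and T and NK cell genes leaned to loss. Neural adhesion and synapse genes, which are long and mostly known from neurons, had 132 of 383 regions lost (34.5%) and 26 gained, with net loss at 18 of 20 members. Stem cell regulators had 86 of 336 lost (25.6%) and 22 gained, with net loss at 11 of 19 members and net gain at 1. Erythroid genes had 17 of 78 lost (21.8%) and 6 gained, T and NK cell genes 26 of 120 (21.7%) and 11 gained, B cell genes 12 of 74 (16.2%) and 7 gained, and megakaryocyte genes 13 of 88 (14.8%) and 6 gained. Lymphoid priming genes were close to the overall share, with 34 of 268 lost (12.7%) and 26 gained. Endothelial and stromal genes had 16 gained and 16 lost of 111, mast cell and basophil genes 6 and 5 of 51, and stem cell surface and signalling genes 24 gained and 13 lost of 172. The direction of this last list turned when LMPP replicate 1 was left out, to a net (gained minus lost) of -6, and the net was 28 without MDP replicate 1 and 22 without MDP replicate 2, against 11 with all 4 libraries.

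The size of several of these losses depended on how regions were given to genes or on single libraries. When each region went to the gene with the nearest start site, the net of neural adhesion and synapse genes was -27 instead of -106, of stem cell regulators -29 instead of -64, of erythroid genes -3 instead of -11, of megakaryocyte genes -3 instead of -7 and of B cell genes 0 instead of -5, while that of T and NK cell genes was -16 against -15. Lymphoid priming genes had a net of -8, which became -29 without LMPP replicate 1, -14 without LMPP replicate 2 and -1 without MDP replicate 2. The net of B cell genes was -9 without LMPP replicate 1 and also without LMPP replicate 2. Megakaryocyte genes had -14 without LMPP replicate 2 and -1 without MDP replicate 1. Endothelial and stromal genes, with a net of 0, ranged from -7 to 6 with 1 library left out.

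Single transcription factor genes showed how the regions were arranged. Runx1 (chromosome 16, 92601466 to 92826074), a master factor of blood formation, had 31 regions, of which the MDP libraries detected 27 and 28 and the LMPP libraries 17 and 18. Its 11 gained regions lay at -54.63 to 124.05 kb from a start site, 8 of them inside the gene, and 1 region was lost. Erg (chromosome 16, 95359169 to 95586600), an ETS factor that maintains stem cells, was the exception among stem cell regulators. MDP libraries detected 31 and 28 of its 32 regions, against 14 and 17 in LMPP, and 8 were gained and none lost. At Runx1, 6 of the 11 gained regions were found in both IRF8KO MDP libraries and 4 in neither, and at Erg 4 of 8 in both and 3 in neither.

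Irf8 (chromosome 8, 120736358 to 120756694), the factor deleted in the IRF8KO cells, exchanged regions. The MDP libraries detected 22 and 18 of 27 regions and the LMPP libraries 8 and 9, with 11 gained and 4 lost. Of the gained regions, 2 lay inside the gene, 1 before it and 8 beyond its end, reaching 69.26 kb after the start. Both CDP libraries detected the lost regions at -20.92 kb and 13.58 kb. Cebpb, a C/EBP factor of activated myeloid cells, also exchanged regions, with 4 gained and 2 lost of 19, detected at 17 and 16 in MDP against 12 and 13 in LMPP.

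Single myeloid factors differed in how many regions they gained. Spi1, which encodes PU.1, had 7 of 7 regions in both MDP libraries, against 5 and 4 in LMPP, and 2 were gained. Cebpa, the factor of granulocyte-monocyte commitment, had 7 and 8 of 9 regions in MDP and 6 and 8 in LMPP, with 1 gained. Cebpe, a late granulocyte factor, had 3 of 3 in both MDP libraries against 1 and 2 in LMPP, and 1 was gained. Gfi1, a repressor in granulocyte development, had 6 and 5 of 6 in MDP and 5 and 5 in LMPP, with 1 gained. Klf4, a monocyte factor, gained 2 and lost 1 of 9, and Irf4, a dendritic cell factor, gained and lost none of 5. Pparg, a nuclear receptor of macrophage lipid metabolism, had more gained regions than these, with 10 and 12 of 13 regions in MDP, 5 and 4 in LMPP, and 8 gained. Of those 8, 7 were found in both CDP libraries and 7 in neither IRF8KO MDP library.

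Zeb2 ran against its list. It encodes a repressor needed by monocytes and plasmacytoid dendritic cells, and its MDP libraries detected 9 and 9 of 23 regions against 19 and 18 in LMPP, with 1 gained and 8 lost. Of the 8 lost regions, 4 were detected in both LT-HSC libraries. Ets2 was the opposite case, with 7 and 8 of 8 regions in MDP, 2 and 2 in LMPP, and 5 gained. Runx3 gained 5 of 20 and lost none, and Egr2 gained 4 and lost 1 of 11.

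Stem cell regulators differed from gene to gene, and the most lost regions were at Mecom. Mecom (chromosome 3, 29951296 to 30509759), which encodes the stem cell factor EVI1, had 39 regions, of which MDP libraries detected 12 and 11 and LMPP libraries 34 and 36. All 21 changed regions were lost, and 20 of them lay inside the gene. Of the 21, 5 were detected in both LT-HSC libraries and 9 in neither. Hlf had 7 and 5 of 16 regions in MDP and 13 and 16 in LMPP, with 6 lost. Gata2, which drives stem, mast and erythroid programs, gained and lost none of 7, with 7 and 6 in MDP and 6 and 6 in LMPP. Lyl1, Hoxa9, Egr1 and Pbx3 also gained and lost none, of 1, 2, 2 and 6 regions.

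**Figure D4:**
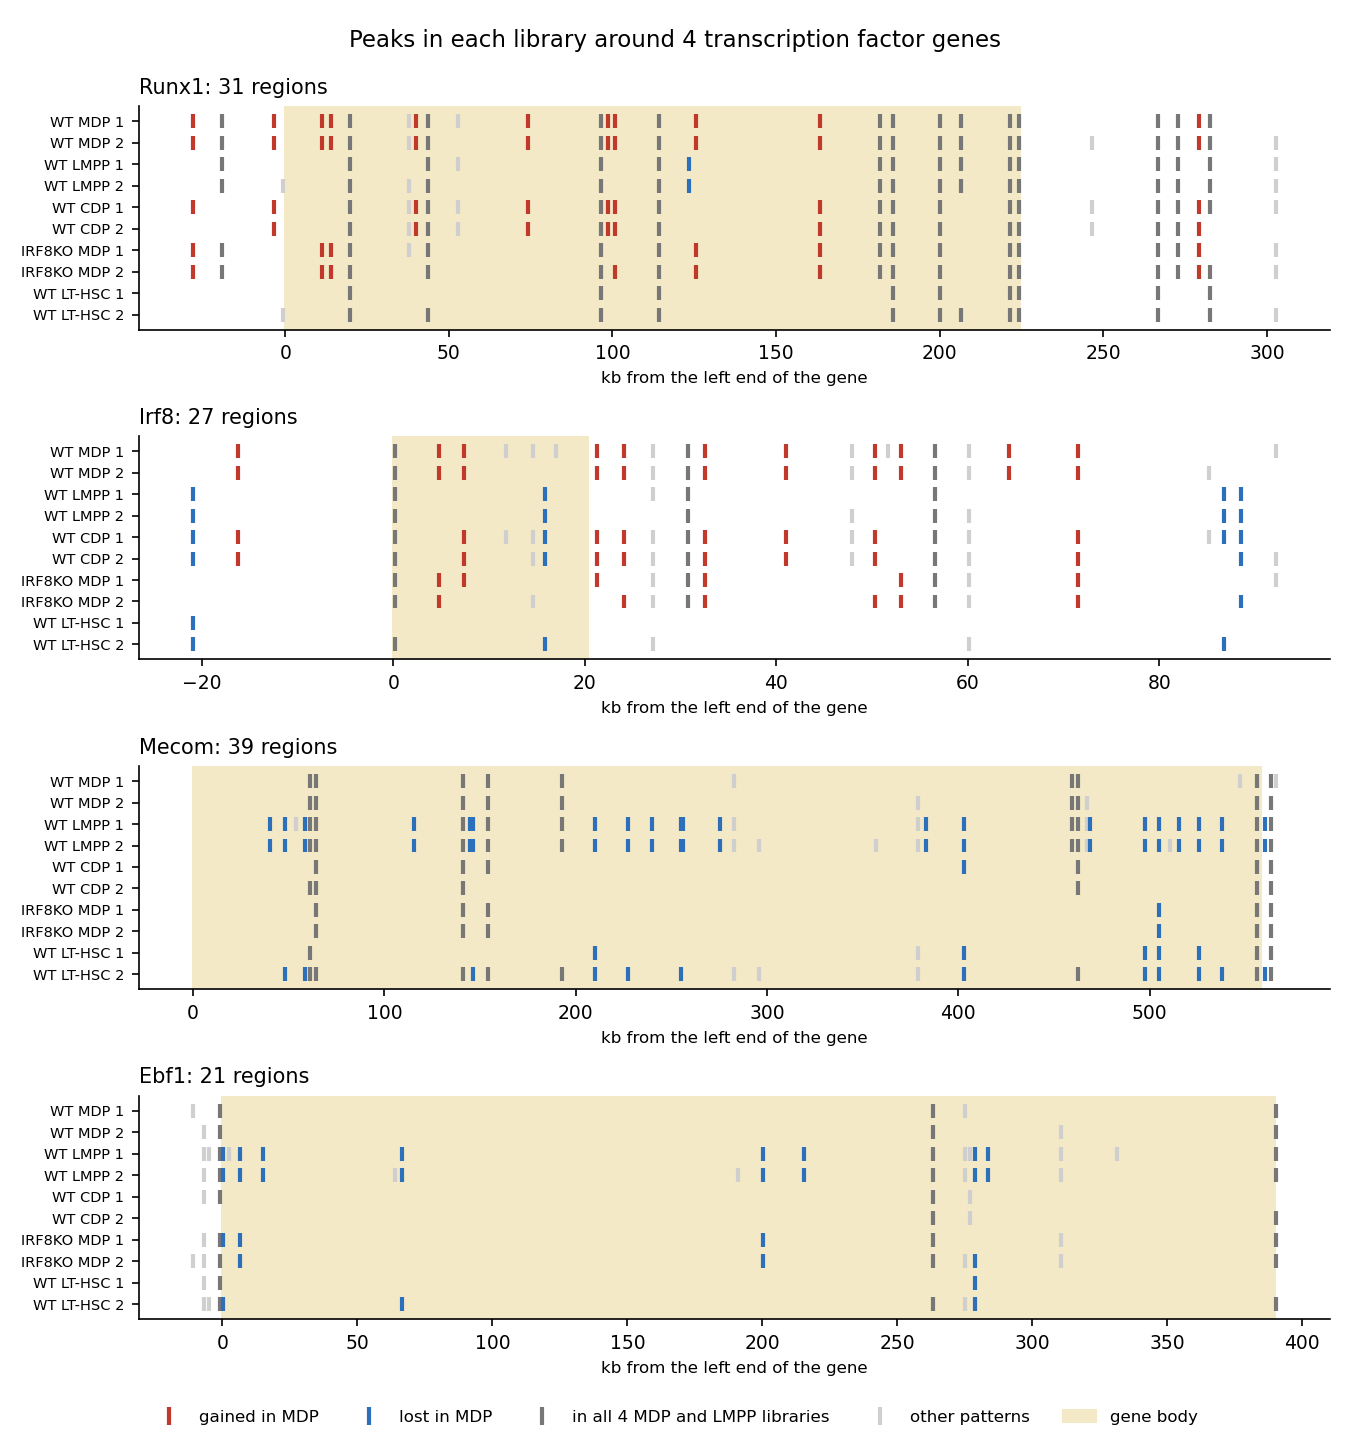
Peaks of each of 10 libraries (rows) at the regions nearest to Runx1, Irf8, Mecom and Ebf1, by distance in kb from the left end of the gene (horizontal axis). Red ticks are regions gained in MDP, blue lost, dark grey shared and light grey other patterns, and the shaded band is the gene body. The 21 lost regions of Mecom and the 11 gained regions of Runx1 mark the contrast.

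Lymphoid genes differed among themselves. Ebf1 (chromosome 11, 44618100 to 45008096) had the most lost regions among B cell genes, with 5 and 5 of 21 regions in MDP against 18 and 16 in LMPP, and 8 lost. Satb1, a chromatin organizer of lymphocytes, had 8 and 6 of 18 in MDP and 13 and 16 in LMPP, with 1 gained and 6 lost. Bcl11a, needed for lymphoid and plasmacytoid cells, had 27 and 22 of 49 in MDP and 36 and 40 in LMPP, with 3 gained and 9 lost. Tcf7, which encodes the T cell factor TCF1, had 1 and 2 of 7 in MDP and 6 and 4 in LMPP. Its 3 lost regions lay 13.94 to 20.44 kb inside the gene, while a region at -0.36 kb from a start site was gained. Eomes lost 4 of 8. Dntt lost its start region and one at -9.76 kb, but 6 of its 11 regions were shared. Il7r, whose product is absent from the surface of sorted MDP per the labels, was detected at 4 of 4 regions in both MDP libraries, against 3 and 3 in LMPP.

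Granule genes gained from none to several regions each. Ctsg (chromosome 14, 56099885 to 56102574) had 4 and 6 of 6 regions in MDP and 1 and 0 in LMPP, and its 4 gained regions lay at -6.48 to 3.39 kb from the start. Chil3, a chitinase-like protein of neutrophils and macrophages, had 3 and 3 of 3 regions in MDP and none in LMPP. All 3 were found in both IRF8KO MDP libraries and in neither CDP library. S100a8, which encodes a subunit of calprotectin, had 3 and 3 of 3 in MDP against 0 and 1 in LMPP. Mpo, the granule peroxidase, had 3 and 4 of 4 in MDP and 2 and 2 in LMPP, with 1 gained. Ctsc, the protease that activates granule enzymes, had the most regions of the list, 19, of which 17 and 14 were detected in MDP and 11 and 11 in LMPP, with 5 gained and 2 lost. Prtn3 gained none of 3.

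Net gain was found at 22 of 31 monocyte and macrophage effectors, 14 of 24 conventional and 8 of 19 plasmacytoid dendritic cell genes. Over all genes with a region, 27.0% had net gain. For the plasmacytoid list, the share of regions gained was 13.5%, near the 13.2% over all genes. The scavenger receptor gene Msr1 had 7 and 8 of 8 regions in MDP and 1 and 2 in LMPP, with 5 gained. Ccr2 had 6 of 6 in both MDP libraries and 3 in both LMPP libraries, and Cybb 8 and 9 of 9 in MDP and 5 and 5 in LMPP, with 3 gained at each. Tlr2, a receptor of bacterial lipopeptides, gained 5 and lost 1 of 11. Among dendritic genes, Cadm1 had 8 and 11 of 11 regions in MDP and 5 and 5 in LMPP, Xcr1 gained 3 and lost 1 of 4, and Clec9a had 3 and 2 of 3 in MDP and none in LMPP. Batf3, the factor of cross-presenting dendritic cells, gained 2 of 10, and Zbtb46, known from conventional dendritic cells, gained and lost none of 12. Siglech, a surface lectin of plasmacytoid cells, gained 2 of 8. Genes of class II antigen presentation went both ways. H2-Aa and H2-Ab1 each lost 1 of 4 regions and gained none, H2-DMb1 gained 2 of 4 and Cd74, the invariant chain, 1 of 4 with none lost, and H2-Eb1 and H2-DMa had no gained or lost region. The lysosomal protease genes Lgmn and Ctsb gained 4 of 8 and 2 of 5.

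Cytokine receptor genes had net gain at 9 of 20 members, net loss at 3 and neither at 8. Over all genes, 27.0% had net gain and 22.0% net loss. Il1r2, a decoy receptor for interleukin 1, had 9 and 8 of 9 regions in MDP and 4 and 4 in LMPP, with 4 gained. Ifnar2 had 8 and 8 of 9 in MDP and 3 and 3 in LMPP, also with 4 gained, and Ifngr1 gained 4 and lost 1 of 17. Csf1r, which encodes CD115, did not change by the rule: 3 and 5 of its 5 regions were detected in MDP and 3 and 3 in LMPP. Kit gained 3 and lost 1 of 18, and Flt3 gained 2 of 14. The single region given to Ly6a, which encodes Sca-1, was detected in 1 MDP library and in no LMPP library. Ly6a has close relatives beside it that reads may not tell apart.

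Several genes of other lineages lost regions. Car2, a carbonic anhydrase of red cells, had 4 and 4 of 16 regions in MDP and 13 and 13 in LMPP, with 6 lost, and Ank1 lost 5 of 12. In the megakaryocyte list Rab27b had 2 and 2 of 8 regions in MDP and 8 and 6 in LMPP, with 4 lost. Col1a2, a collagen gene of stromal cells, had 1 and 2 of 11 in MDP and 9 and 9 in LMPP, with 5 lost, and Cldn5, an endothelial junction gene, lost 3 of 4. Others of the endothelial and stromal list went the other way, with Cxcl12, a chemokine of stromal cells, at 10 and 9 of 13 in MDP and 8 and 5 in LMPP, with 5 gained and 1 lost, and the actin gene Acta2 at 5 and 5 of 5 in MDP and 2 and 2 in LMPP, with 3 gained. Prex2, an exchange factor for Rac, had 4 and 4 of 18 regions in MDP, 18 and 16 in LMPP and 12 lost, and the adhesion receptor gene Adgra3 had 3 and 2 of 13 in MDP, 13 and 13 in LMPP and 10 lost. At Tenm3, a neural adhesion gene, 2 and 2 of 16 regions were found in MDP and 11 and 14 in LMPP, and 7 were lost. In these bulk libraries, fewer cells with an open region and less opening per cell cannot be told apart. Some genes had many changes in both directions, such as Foxp1 with 15 gained and 10 lost of 72, Wwox with 13 and 11 of 69 and Hdac9 with 12 and 8 of 44.

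The changed regions were then looked up in the 6 libraries that did not enter the rule. Of gained regions, 80.0% and 76.8% had a peak in the 2 CDP libraries, and 73.3% in both (95% Wilson interval 72.5 to 74.1). In IRF8KO MDP 45.4% and 49.2% were detected, with 41.0% in both libraries (40.1 to 41.9) and 46.4% in neither. For shared regions the IRF8KO MDP libraries detected 85.2% and 87.0%. Only 1.86% and 8.06% of gained regions had a peak in the LT-HSC libraries. The CDP libraries were deeper, with 10166833 and 7985428 tags. The IRF8KO MDP libraries had 4790046 and 5313729 tags, against 5394861 and 5328234 in WT MDP, and fewer peaks, 50728 and 54277. Their share of tags within peaks was 43.72% and 43.94%, against 51.25% and 53.74% in WT MDP. The part of depth and of these shares was not tested.

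Part of the lost regions had peaks in LT-HSC, and few had peaks in CDP. The LT-HSC libraries detected 24.7% and 51.1% of them, 23.8% in both (23.1 to 24.6) and 48.0% in neither. LT-HSC replicate 1 stands apart with 31325 peaks and 19.32% of tags within peaks, and without it the share is the 51.1% of replicate 2. CDP libraries detected 13.5% and 11.4% of lost regions, 8.48% in both (8.0 to 8.98), and IRF8KO MDP libraries 7.02% and 8.77%. Neither CDP library had a peak in 83.6% of lost regions, and neither IRF8KO MDP library in 88.0%.

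**Figure D5:**
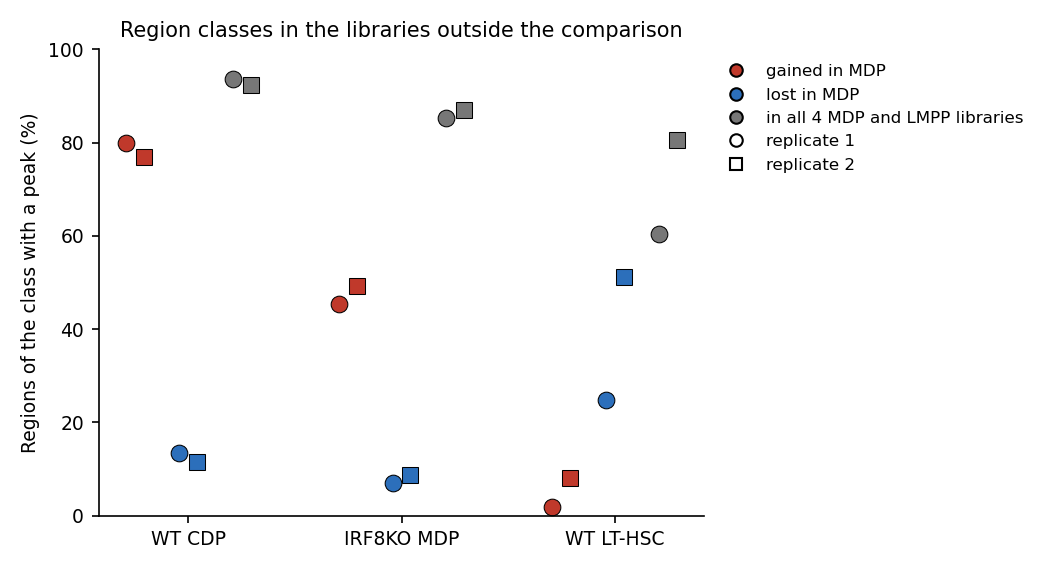
Share of regions with a peak (vertical axis, %) in each of the 6 libraries outside the comparison, for regions gained (red), lost (blue) and shared (grey). Circles are replicate 1 and squares replicate 2. Gained regions stand at 80.0% and 76.8% in CDP and at 45.4% and 49.2% in IRF8KO MDP.

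Detection followed position in the lists, taken as the mean over the libraries of a group. Among gained regions in the first 25% of the MDP lists, 97.0% and 97.6% had a peak in the CDP libraries and 70.1% and 72.2% in the IRF8KO MDP libraries, where shared regions of that rank reached 97.8% and 98.0%. In the last 25% the IRF8KO MDP libraries detected 35.7% and 39.9% of gained and 47.4% and 53.9% of shared regions. For lost regions in the first 25% of the LMPP lists, the LT-HSC libraries detected 73.6% and 87.8%, and in the last 25% they detected 10.7% and 33.9%. Shared regions of the same ranks had 90.5% and 97.5%, and 14.0% and 44.2%. Detection of lost regions in the CDP libraries did not fall in this way. It was 11.1% and 9.44% in the first 25% of the LMPP lists, and 13.8% and 11.4% in the last 25%.

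Taken jointly, 4792 gained regions (39.2%) were detected in both CDP libraries and in neither IRF8KO MDP library, 3089 (25.3%) in both of each, and 1326 (10.8%) in both IRF8KO MDP libraries and in neither CDP library. The lists differed in this respect, without a test of the difference. Neutrophil granule genes had 17 of 29 gained regions (58.6%) in both IRF8KO MDP libraries, and 10 of the 29 in neither CDP library. Plasmacytoid dendritic cell genes had 3 of 21 (14.3%) in both IRF8KO MDP libraries, monocyte and macrophage effectors 22 of 60 (36.7%), conventional dendritic cell genes 17 of 41 (41.5%) and myeloid transcription factors 38 of 86 (44.2%). Over all gained regions this share was 41.0%. Lost regions of erythroid genes were in both LT-HSC libraries in 10 of 17 cases (58.8%) and those of megakaryocyte genes in 7 of 13 (53.8%). For T and NK cell genes this held for 3 of 26 (11.5%), and for B cell genes for 1 of 12 (8.33%). The share over all lost regions was 23.8%. Single genes weighed in these counts, as Car2 held 5 of the 10 erythroid regions and Rab27b 3 of the 7 megakaryocyte regions.

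Some changed regions stood next to each other, and the genes named in this paragraph were chosen after the values were seen. Most, 8180 of the 12229 gained and 7302 of the 12258 lost regions, had no neighbouring region of their own class. Runs of at least 5 neighbouring regions of 1 class, with no region of another class between them, numbered 26 for gained regions (144 regions) and 68 for lost regions (383 regions). On chromosome 15 (62871150 to 63497680), a run of 6 gained regions lay 881.0 kb beyond Myc and 278.0 kb before Gsdmc, the nearer gene. Peaks were found in 4 and 3 of these regions in CDP and in 2 and 2 in IRF8KO MDP. Further gained runs were 6 regions over the Klk1b kallikrein cluster on chromosome 7 (43967048 to 44226220), all 6 without a peak in either IRF8KO MDP library, and 6 by Sirpb1a and Sirpb1b on chromosome 3. Both are families of close copies, among which reads may be placed wrongly. The longest lost run held 11 regions over 793.0 kb of chromosome 7 (35901806 to 36694667) and ended 3.45 kb before Tshz3, a zinc finger gene of development. Others lay in Nfib, Thrb and Dlgap2 and around Bmp4.

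MicroRNA genes were few among the changed regions, and Mir223 was singled out after its values were seen. Of 1005 hairpins, 6 overlapped a gained region, 5 a lost region, 117 a shared region and 14 a region of another pattern. Most hairpins overlapped no region. Over all regions, 13.2% were gained and 13.2% lost. miR-223 is a microRNA abundant in granulocytes and monocytes, and its mature forms are given from RefSeq, with the seed (bases 2 to 8) in capitals.
mmu-miR-223-5p: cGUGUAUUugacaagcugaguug
mmu-miR-223-3p: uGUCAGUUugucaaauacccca
The hairpin (chromosome X, 96242817 to 96242926, plus strand) lay in a region (96242282 to 96242949) with peaks in neither MDP library and in both LMPP libraries. Both CDP and both IRF8KO MDP libraries also had a peak there, and the LT-HSC libraries had none. The regions on either side, centred -3.39 kb and 2.53 kb from the start of the hairpin, were shared by all 4 libraries compared, one at 13.92 kb was gained in MDP, and one at -18.4 kb was lost.

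None of the 5 highest gained or the 5 highest lost regions was nearest to a member of the gene lists. The highest gained region (chromosome 2, 73037135 to 73040622) lay 53.9 kb from Ola1 and at -58.43 kb from the start of Sp3, and was detected in all CDP and IRF8KO MDP libraries. Next came a region inside Smyd3, one 31.8 kb from Ptcd2, one with no gene within 100 kb and one near Cop1, all detected in both CDP and both IRF8KO MDP libraries. Of the 5 highest lost regions, those inside Gpr45, Unc5c and Rspo3 had a gene within 100 kb and the other two had none, and all 5 were found in both LT-HSC libraries and in neither CDP library.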

How the data were processed

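Open chromatin was measured by ATAC-seq in 10 libraries, of which the 2 WT MDP and the 2 WT LMPP libraries were compared. The submitters' processing notes name Bowtie 1.1.2, HOMER 4.9 and the build mm10 (GRCm38). Per the file headers, the authors called peaks with HOMER in each library by itself, without a control, at a false discovery rate of 0.001 and at least 4-fold over the local surroundings, counting at most 1 tag per base pair. A shift of reads for the cut offset of the transposase is nowhere described in the labels or headers. In the deposited lists the score column holds 1 in every row and was not used as a strength, and the positions are the only other values per peak, so detection was compared and no count model was used. Row order was taken as strength where the text says so, and replicates had Spearman correlations of row position of 0.918 (MDP) and 0.91 (LMPP) over regions found in both.

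From these lists, regions were merged, classed and given to the nearest of 21631 protein-coding gene spans within 100 kb (RefSeq, GRCm38.p6), with start sites for 17274 of these genes. Scripts used Python 3.11.15, numpy 2.4.6, pandas 2.3.3, scipy 1.17.1 and matplotlib 3.10.9, and were checked on simulated lists. No start windows were at hand for chromosome 18, so distances to starts leave it out. No list of repeat-rich regions was removed, and the widest region spans 77236 bp. No genome was used here, so the motif shares planned per library, with their alternatives, were not run, and motifs were searched in start windows instead, a choice made after seeing the files.

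The members and the 20 gene lists were chosen with earlier results of these data known. The lists held 389 entries, of which 387 matched a symbol (Ighm and Tpsab1 did not). Genes named are those with the most net gained or lost regions, up to 5 per list, genes changed most in both directions, 16 fixed genes (such as Irf8, Spi1, Kit and Mecom), those nearest to the 5 highest regions of each class and list members with a changed start window. Other list members given as examples were chosen after their values were seen. Library measures were compared by two-sided exact permutation tests. The labels number the replicates of both groups, and nothing says that the numbers pair them. Some genes and regions that these rules pick are not reported here.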

Additional observations from a re-analysis of the deposited data

How the results depend on the processing

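The numbers of gained and lost regions stayed within 1.5 times their values under every alternative run. They were 14376 to 17489 gained and 14334 to 17635 lost when 1 library was left out, which loosens the rule and by construction cannot lower them. An overlap of 250 bp gave identical counts, since each merged region contains whole peaks. Of 20 lists, 12 had a net gain, and 10 to 13 did with 1 library left out. Over 9 settings and 20 lists, 131 of 180 net values stayed in direction and within 1.5 times, 45 moved and 4 turned. The 4 were stem cell surface and signalling genes without LMPP replicate 1 (-6), plasmacytoid dendritic cell genes without LMPP replicate 2 (-1), and mast cell and basophil genes without LMPP replicate 2 (-1) and with lists cut to equal length (-1). With 1 library left out, the net of stem cell surface and signalling genes (11) ranged from -6 to 28, of plasmacytoid dendritic cell genes (6) from -1 to 10, and of mast cell and basophil genes (1) from -1 to 1. The cause was not tested. With the nearest start site in place of the nearest gene span, the net stayed negative but shrank for neural adhesion and synapse genes (-27) and stem cell regulators (-29).

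The MDP, LMPP and CDP lists were cut to 62117 peaks each, while the IRF8KO MDP and LT-HSC lists were shorter and stayed whole. With these lists, 70.0% of gained regions were in both CDP and 41.9% in both IRF8KO MDP libraries. Of lost regions, 24.7% were in both LT-HSC and 7.17% in both CDP libraries. Counting a peak in at least 1 library gave 83.5%, 53.6%, 52.0% and 16.4% in the same order, by construction higher. Chosen after seeing the data, LT-HSC replicate 2 alone held 51.1% of lost regions. Also chosen then, gained regions in the first 50% of the MDP lists by mean position were in both IRF8KO MDP libraries in 55.6% of cases.

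With the replicate numbers as pairs, MDP minus LMPP was unchanged at -442.5 peaks (exact sign-flip p = 1.0), 5.435 percentage points of tags within peaks (p = 0.5, the smallest possible) and -3.5 bp of median width (p = 1.0). Pairing cannot change a class of region, which needs both libraries of a group. The lists hold no tag counts, so a region just under the calling threshold in one group counts as absent.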
